A study of Saccharomyces cerevisiae with 4 samples.

Results

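OCH1 and the genes of the Golgi mannan polymerases encode the enzymes that build the outer chain of N-linked glycans in Saccharomyces cerevisiae. The 10 genes taken here were OCH1, MNN9, VAN1, ANP1, MNN10, MNN11, HOC1, MNN2, MNN5 and MNN4, of 5656 genes tested, each represented by a probe set annotated to that gene symbol alone. They were named by 11 probe sets of the 9335 on the array, since 2 probe sets named MNN4. Biotin-labelled total RNA was hybridised to Affymetrix yeast arrays from a pmt1 pmt2 mutant in the SEY6210 background (n = 2 arrays) and from wild type SEY6210 (n = 2 arrays), with 1 array for each biological sample. Cultures of both strains were started from overnight growth at an optical density of 0.1, taken to 0.45 and kept for a further 3 hours, and RNA came from exponentially growing cells. How PMT1 and PMT2 were altered, and the other markers of both strains, are not given in the sources used here.

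N-linked glycans leave the endoplasmic reticulum with a trimmed core. In the Golgi, Och1 adds the first mannose of the outer chain, the mannan polymerase complexes lengthen it into a backbone, and further transferases add side branches and mannosylphosphate. The resulting mannan coats secreted and wall proteins. PMT1 and PMT2 act in a separate route, as mannosyltransferases of the endoplasmic reticulum that place O-linked mannose on serine and threonine. The comparison asks whether transcripts of the N-linked outer chain differ in cells mutated for these O-mannosyltransferases.

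The mutated genes were lower. PMT1 (YDL095W) had a signal of 111.4 and 103.8 in pmt1 pmt2 cells, against 1177.7 and 808.7 in wild type cells (log2 change −3.18 ± 0.37 (SE), limma adjusted p = 0.0382). PMT2 (YAL023C) had 11.9 and 15.5 in pmt1 pmt2 cells, against 2645.5 and 2770.8 in wild type cells (at least 103-fold lower against the background level, log2 change −7.64, limma adjusted p = 0.00309). Without pmt1 pmt2 array 1 the limma adjusted p was 0.187 for PMT1 (log2 change −3.23) and 0.0591 for PMT2 (−7.45), and without pmt1 pmt2 array 2 it was 0.242 for PMT1 (−3.13). Signals are the deposited probe set values in linear units, and log2 changes are pmt1 pmt2 minus wild type. Markers of alpha cells (4 of 4) were above background on all arrays, at 732.1 to 5518, and 4 of 6 markers of a cells were at or below background on all arrays. All 4 alpha-cell markers had a log2 change below 0 within both array numbers, as had 1756 of the 5656 genes tested. Their summed signal was 9583 and 9876.9 in pmt1 pmt2 cells and 16025.8 and 14778.2 in wild type cells. Of these 4, limma called 0 (0.389% of all genes), and 1 had an unadjusted p under 0.05 (7.18% of all genes). Summed over the a-cell markers, of which none was at 0, the signal was 75.8 and 87.5 in pmt1 pmt2 cells and 179.7 and 166.3 in wild type cells. MFA2 carried that gap, with 12.1 and 20.5 in pmt1 pmt2 cells and 126.4 and 96.0 in wild type cells, and the other 5 a-cell markers summed to 63.7 and 67.0 in pmt1 pmt2 cells and 53.3 and 70.3 in wild type cells. Limma called 0 of the 6 a-cell markers (0.389% of all genes). The unadjusted p was under 0.05 for 2 of 6 (7.18% of all genes): MFA2, which was lower, and BAR1, which was higher but below background. The part of these mating type differences in the results below was not tested. The background level, 26.2, was the top value among 19 control probe sets for transcripts that yeast lacks. The arrays numbered 2 in each group stood apart from those numbered 1: the control probe set for the tail of the actin transcript was brighter than that for its start by a factor of 1.32 and 1.38 in pmt1 pmt2 and wild type array 2, against 3.15 and 2.99 in array 1. The changes of the 10 genes are therefore also given within the array numbers, and the fit was repeated with the array number as a block. PMT1 and PMT2 were lower within both numbers, with log2 changes of −3.40 and −7.80 within number 1 and −2.96 and −7.48 within number 2. With the block, MFA2 was called lower (log2 change −2.81, limma adjusted p = 0.00825). It was 1 of 6 a-cell markers called, with 0 of 4 alpha-cell markers, against 3.02% of all genes.

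OCH1 was the member with the largest difference, and none of the other 9 passed the test after adjustment. None of the 10 genes passed limma's adjusted p of 0.05 in the fit without a block (0 called, against 0.389% of all genes), and 1 of 10, OCH1, had an unadjusted p under 0.05 (7.18% of all genes). With the array number as a block, OCH1 passed as higher and the other 9 did not pass (1 of 10 called, against 3.02% of all genes). In that fit 2 of 10, OCH1 and MNN4, had an unadjusted limma p under 0.05, as had 1016 of the 5656 genes tested. The labels do not pair the arrays by number, and on simulated data the blocked fit made more false calls than its nominal rate, so the OCH1 call rests on a fit with these limits. Signals of pmt1 pmt2 and wild type cells did not overlap for 1 of 10, OCH1, against 33.2% of all genes. The median log2 change of the 10 was 0.010, beside 0.027 over all genes tested. With 2 arrays a group an exact two-sided permutation test gave p = 0.333 for OCH1, the smallest value this design allows.

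**Figure D1:**
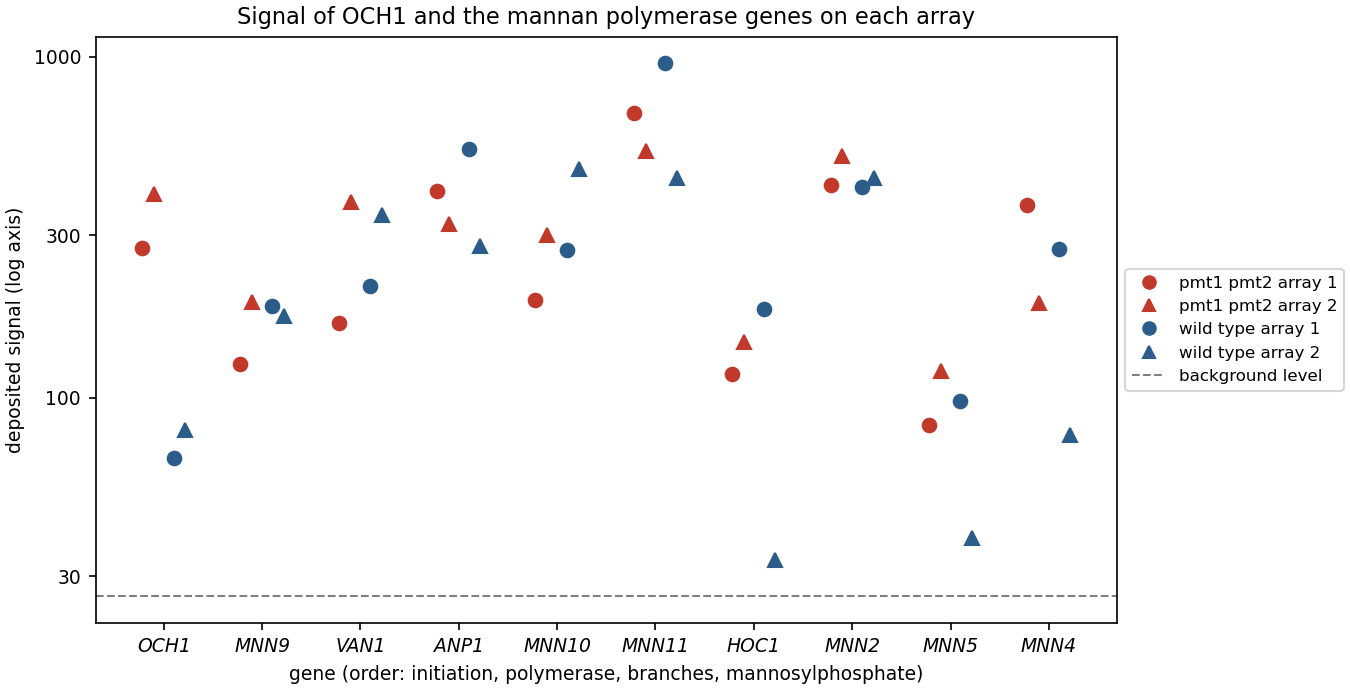
Deposited signal (log axis) of the 10 genes on each of the 4 arrays, with pmt1 pmt2 arrays in red at the left of each gene, wild type arrays in blue, circles for arrays numbered 1 and triangles for arrays numbered 2; the dashed line is the background level of 26.2. OCH1 is the gene whose pmt1 pmt2 points (274.0 and 395.2) lie wholly above its wild type points (66.8 and 80.7).

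OCH1 (YGL038C) encodes the initiating mannosyltransferase, on which the whole outer chain depends. Its signal was 274.0 and 395.2 in pmt1 pmt2 cells, against 66.8 and 80.7 in wild type cells. Both mutant arrays lay above both wild type arrays, and the lower mutant value was well above the higher wild type value. In RNA from whole cultures, more cells with the transcript and more transcript per cell cannot be told apart. The means were 335 ± 85.7 in pmt1 pmt2 cells and 73.8 ± 9.83 in wild type cells (SD, n = 2 each). Taken from the mean log2 signals, the difference was 4.48-fold. The log2 change was 2.16 ± 0.38 (SE), with a 95% interval of 1.24 to 3.08, an unadjusted p of 0.00116 and an adjusted p of 0.133 (limma, two-sided, Benjamini-Hochberg over 5656 genes). With the array number as a block the interval was 1.54 to 2.79 and the limma adjusted p 0.00875. The difference was of similar size in both numbers, with a log2 change of 2.04 within the arrays numbered 1 and 2.29 within those numbered 2. Leaving out any 1 array gave log2 changes of 1.90 to 2.43. Of all genes, 53 (0.937%) had a log2 change at least as high as OCH1, and 38 (0.672%) reached 2.04 within both numbers, OCH1 among both counts. The adjusted p thus lay on either side of 0.05 with and without the block, and it was 0.0390 when only the 3539 genes with a mean log2 signal of at least 6 were tested.

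**Figure D2:**
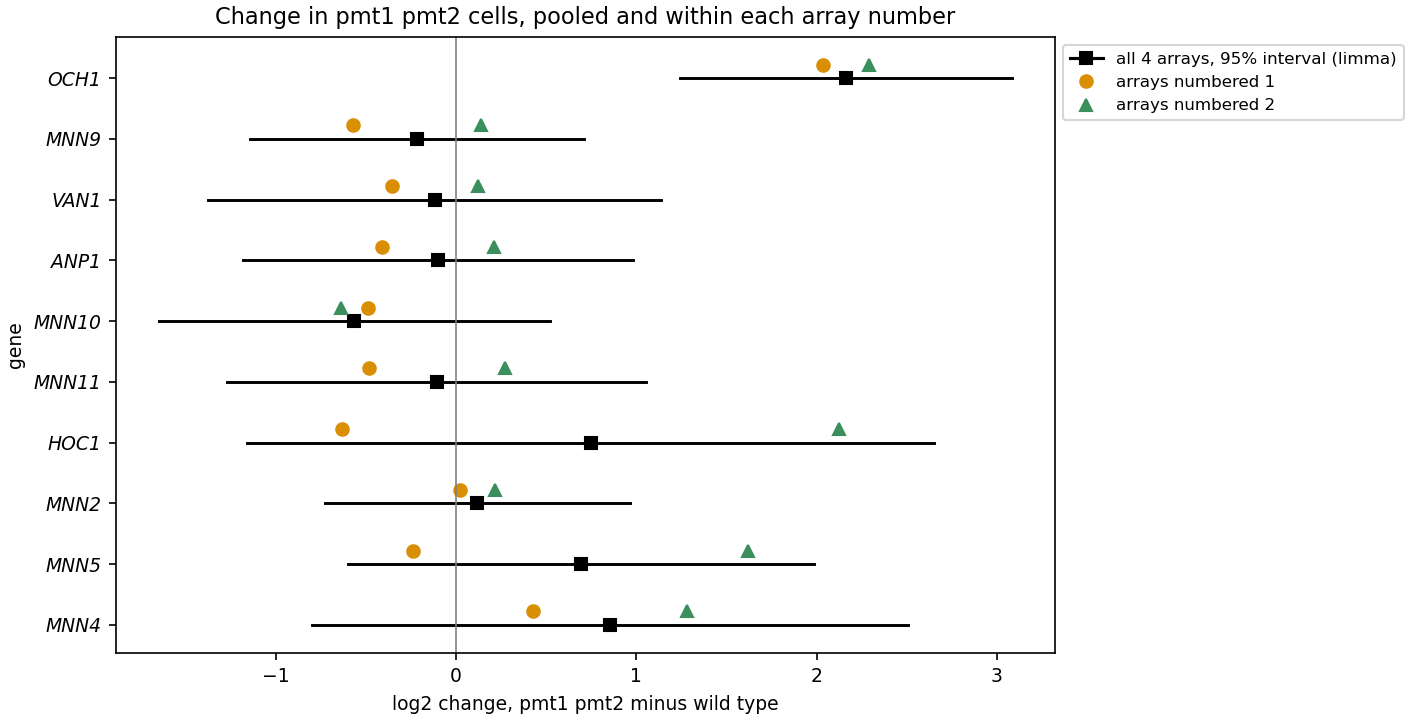
Log2 change, pmt1 pmt2 minus wild type, of each gene over all 4 arrays (black squares, with limma's 95% interval without a block), within the arrays numbered 1 (orange circles) and within those numbered 2 (green triangles). The interval of OCH1 runs from 1.24 to 3.08, and the intervals of the other 9 genes include 0.

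MNN9 (YPL050C) encodes the subunit shared by both mannan polymerase complexes. Its signal was 125.4 and 191.0 in pmt1 pmt2 cells, against 186.0 and 173.3 in wild type cells. The mutant arrays lay on either side of the wild type pair (log2 change −0.21, 95% interval −1.14 to 0.71, and −0.57 and 0.14 within the numbers). VAN1 (YML115C) encodes the partner of Mnn9 in mannan polymerase I, the complex that starts the backbone. Its signal was 166.2 and 373.9 in pmt1 pmt2 cells, against 212.3 and 344.1 in wild type cells. In both groups the array numbered 2 was the higher one, and the groups overlapped (log2 change −0.12, 95% interval −1.37 to 1.14, and −0.35 and 0.12 within the numbers).

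ANP1, MNN10, MNN11 and HOC1 encode the subunits that join Mnn9 in mannan polymerase II, which extends the backbone. ANP1 (YEL036C) had a signal of 403.6 and 322.3 in pmt1 pmt2 cells, against 536.9 and 278.0 in wild type cells (log2 change −0.099, 95% interval −1.18 to 0.98, and −0.41 and 0.21 within the numbers). MNN11 (YJL183W) had 684.3 and 530.6 in pmt1 pmt2 cells, against 955.8 and 440.0 in wild type cells (log2 change −0.11, 95% interval −1.27 to 1.06, and −0.48 and 0.27 within the numbers). For both genes the wild type arrays formed the extremes and the mutant arrays lay between them. MNN10 (YDR245W), a mannosyltransferase of the same family as MNN11, had 193.0 and 300.6 in pmt1 pmt2 cells, against 270.9 and 467.9 in wild type cells. It was the one member with a lower signal in the mutant within both array numbers (log2 change −0.49 within number 1 and −0.64 within number 2), and its groups overlapped. Pooled, the MNN10 log2 change was −0.56 with a 95% interval of −1.65 to 0.52 (limma adjusted p = 0.974, and 0.324 with the block).

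HOC1 (YJR075W) is the homologue of OCH1, and its product sits in the polymerase complex instead of starting the chain. Its signal was 117.7 and 146.0 in pmt1 pmt2 cells, against 182.1 and 33.5 in wild type cells. The wild type pair spanned a wider range than the mutant pair and enclosed it. The HOC1 log2 change was therefore −0.63 within the arrays numbered 1 and 2.12 within those numbered 2, and 0.75 pooled (95% interval −1.16 to 2.65). Without wild type array 2 it was −0.47. The change of OCH1 was thus alike within both numbers, whereas that of its homologue differed in sign between them; the difference between the changes of these genes was not tested.

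MNN2 and MNN5 encode related transferases that add the mannoses of the side branches. MNN2 (YBR015C), which adds the mannose next to the backbone, had a signal of 420.4 and 511.3 in pmt1 pmt2 cells, against 414.0 and 440.1 in wild type cells. It had the narrowest 95% interval of the 10 genes, −0.73 to 0.97 around a pooled estimate of 0.12 (0.022 within number 1 and 0.22 within number 2), and its groups overlapped. MNN5 (YJL186W), which extends the branch, had 83.0 and 119.7 in pmt1 pmt2 cells, against 97.8 and 38.9 in wild type cells. Its log2 change was −0.24 within number 1 and 1.62 within number 2, and without wild type array 2 the pooled 0.69 (95% interval −0.60 to 1.99) became 0.027.

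MNN4 (YKL201C) encodes a positive regulator of mannosylphosphate transfer, which gives the wall negative charge. Its brighter probe set had a signal of 368.3 and 189.2 in pmt1 pmt2 cells, against 273.7 and 77.8 in wild type cells. The mutant array was the higher one within each number (log2 change 0.43 and 1.28), but the groups overlapped, since the arrays numbered 2 were lower than those numbered 1 in both strains. Pooled, the log2 change was 0.86 with a 95% interval of −0.80 to 2.51 (limma adjusted p = 0.974), and without wild type array 2 it was −0.052. With the block the MNN4 interval was 0.13 to 1.58, above 0, with an unadjusted p of 0.0267 and a limma adjusted p of 0.202. The dimmer MNN4 probe set, which was not used, had 4.8 and 35.9 in pmt1 pmt2 cells, against 2.3 and 13.1 in wild type cells, and was above background on 1 array. Both MNN4 probe sets carry the Affymetrix suffix for sets that can match more than one transcript, so the source of this signal is uncertain.

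Over the 9 genes other than OCH1, log2 changes ran from −0.56 (MNN10) to 0.86 (MNN4), with 4 above and 5 below 0 and a median of −0.099. Limma's adjusted p lay between 0.973 and 0.994 without the block and between 0.202 and 0.899 with it. For 6 of the 9 the sign differed between the array numbers, and among all genes tested 37.1% did so. The intervals reach from −1.65 to 2.65, so differences of a few fold in either direction could not be resolved for the most variable genes. Such overlap does not show that these transcripts were equal in both strains.

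Differences between the array numbers were larger in size than those between the strains for most of these genes. The mean log2 difference of the arrays numbered 2 minus those numbered 1 was larger in size than the change between strains for 8 of 10 genes, all but OCH1 and MNN5, and for 59.3% of all genes. VAN1 (0.93) and MNN10 (0.71) were higher on the arrays numbered 2 in both groups, while MNN4 (−1.39), MNN11 (−0.74) and ANP1 (−0.64) were lower there in both. HOC1 (−1.07) was 2.44 lower on the log2 scale on wild type array 2 than on wild type array 1, but 0.31 higher on pmt1 pmt2 array 2 than on pmt1 pmt2 array 1. MNN9 and MNN5 also differed in direction between the strains (0.61 and 0.53 in pmt1 pmt2 cells, −0.10 and −1.33 in wild type cells). OCH1 differed by 0.40 between the numbers and by 2.16 between the strains. MNN4 was the member called for the array number itself (limma adjusted p = 0.0454), 1 of 10 against 6.67% of all genes. The actin ratios given above moved with the same split, and their part in these differences was not tested.

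**Figure D3:**
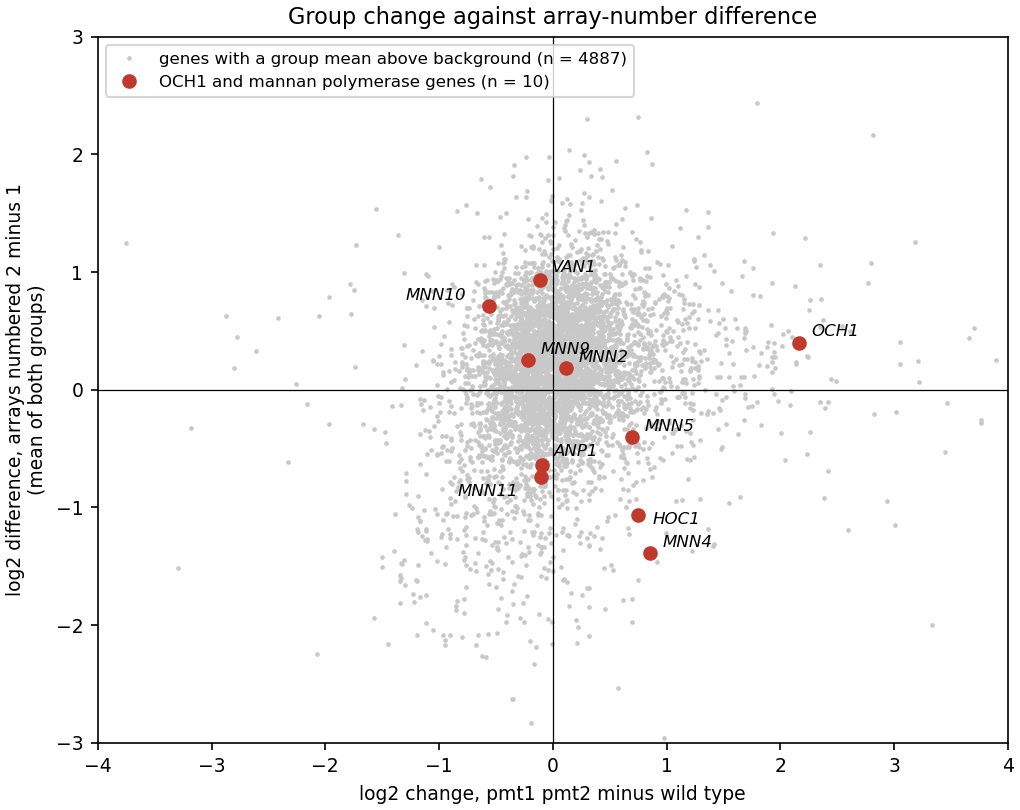
Log2 change between strains (horizontal, pmt1 pmt2 minus wild type) against the mean log2 difference between arrays numbered 2 and 1 (vertical) for the 10 genes in red and, in grey, the 4887 genes with a group mean above background, 8 of which fall outside the axes. OCH1 lies far to the right (2.16) at a small vertical value (0.40), and 8 of the other 9 genes lie farther from 0 on the vertical than on the horizontal axis.

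The genes with the pattern most like OCH1 were taken by the distance between log2 signals centred on each gene's own mean, over 4 arrays and 4662 candidate genes above background on both arrays of at least one strain. The nearest was PRM10, a pheromone-regulated membrane protein gene, at a distance of 0.17 log2 units, with a signal of 399.9 and 537.6 in pmt1 pmt2 cells, against 102.6 and 128.1 in wild type cells. DPI8 followed at 0.17, with 461.8 and 734.1 in pmt1 pmt2 cells, against 129.7 and 157.9 in wild type cells. ICT1 (0.19), an acyltransferase gene of phospholipid synthesis, had 985.9 and 1198.7 in pmt1 pmt2 cells, against 208.5 and 256.5 in wild type cells. All of these showed the same order of arrays, with the array numbered 2 the higher one in each group. SPI1 (0.22), for a GPI-anchored wall protein, had 957.0 and 1365.6 in pmt1 pmt2 cells, against 269.0 and 327.3 in wild type cells. MLS1 (0.23), for malate synthase of the glyoxylate cycle, had 26.4 and 36.9 in pmt1 pmt2 cells, against 7.2 and 7.0 in wild type cells, where it was below background. None of the other mannan genes was among these 5, and the likeness rests on 4 arrays.

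OCH1 lies on chromosome VII between YGL039W and PNC1. PNC1 (YGL037C), the nicotinamidase gene, had a signal of 477.7 and 1049.0 in pmt1 pmt2 cells, against 235.1 and 358.3 in wild type cells. Its groups did not overlap, as for 33.2% of all genes, with a log2 change of 1.29 (1.02 and 1.55 within the numbers, limma adjusted p = 0.663, and 0.0602 with the block). YGL039W, on the other side, had 67.7 and 102.5 in pmt1 pmt2 cells, against 91.3 and 156.8 in wild type cells, and its groups overlapped (log2 change −0.52, limma adjusted p = 0.985). Of the 20 genes next to the 10 members, 0 passed limma's test without or with the block (0.389% and 3.02% of all genes). In the fit without the block 1 of the 20, PNC1, had an unadjusted p under 0.05, against 7.18% of all genes.

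The steps before and beside the outer chain were examined as lists. GDP-mannose is the sugar donor, made by PMI40, SEC53 and PSA1 and carried into the Golgi by VRG4, with GDA1 and YND1 clearing the spent nucleotide. None of these 6 genes passed limma's test without or with the block, against 0.389% and 3.02% of all genes. Without the block 0 of the 6 had an unadjusted p under 0.05 (7.18% of all genes), and their median log2 change was 0.014. Beside such shares, 0 calls in a list this short do not show that its genes were unchanged. GDA1 had 614.0 and 896.3 in pmt1 pmt2 cells, against 786.6 and 1013.9 in wild type cells. PMI40, for phosphomannose isomerase, had 1251.7 and 1624.4 in pmt1 pmt2 cells, against 1086.5 and 1378.9 in wild type cells. VRG4 had 1336.4 and 1794.4 in pmt1 pmt2 cells, against 1691.7 and 1784.8 in wild type cells. All 3 overlapped between the strains. SEC53 did not, with 4928.6 and 4561.2 in pmt1 pmt2 cells, against 4516.2 and 4177.5 in wild type cells. It was 1 of 6 without overlap, against 33.2% of all genes.

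The 5 genes that trim the N-glycan in the endoplasmic reticulum were CWH41, ROT2, GTB1, MNS1 and MNL1, the last also called HTM1. They gave 0 calls by limma without or with the block (0.389% and 3.02% of all genes). Without the block 0 had an unadjusted p under 0.05 (7.18% of all genes), and their median log2 change was 0.19. MNS1, the mannosidase that removes a core mannose, had 43.2 and 106.6 in pmt1 pmt2 cells, against 51.1 and 52.8 in wild type cells, with pmt1 pmt2 array 2 above the other 3 values. Both the glucosidase II genes GTB1 (log2 change 0.24) and ROT2 (0.19) overlapped between the strains. Genes for Golgi ions and the retention of glycosyltransferases were PMR1, GDT1, VPS74, ERD1 and SVP26, with a median of 0.11. They gave 0 of 5 calls by limma with or without the block and 0 at unadjusted p under 0.05, beside the same shares of all genes. The manganese and calcium pump gene PMR1 had 287.4 and 480.8 in pmt1 pmt2 cells, against 282.7 and 355.6 in wild type cells. GDT1, also an ion transporter gene of the Golgi, had a log2 change of −0.45, and ERD1, needed to retain Golgi enzymes, 0.18; both overlapped between the strains.

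The 15 other Golgi transferase genes were those of the KRE2 and MNN1 families, MNN14 and GNT1, with a median log2 change of 0.24. MNN14, at 3.1 to 10.7, was below background on all arrays. Of the 15, 0 passed limma's test without the block, against 0.389% of all genes. The list had 1 gene at unadjusted p under 0.05 (7.18% of all genes) and 1 that passed with the block (3.02%). Signals of the strains did not overlap for 5 of the 15, against 33.2% of all genes. The gene at unadjusted p under 0.05 and with the block was KTR2, a mannosyltransferase gene of the KRE2 family. Its signal was 272.7 and 336.4 in pmt1 pmt2 cells, against 104.2 and 39.8 in wild type cells. Both mutant arrays lay above both wild type arrays, a 4.70-fold difference (log2 change 2.23, and 1.39 and 3.08 within the numbers, limma adjusted p = 0.263, and 0.0387 with the block). MNN1, for the terminal mannosyltransferase, had 376.5 and 476.5 in pmt1 pmt2 cells, against 249.2 and 246.5 in wild type cells (log2 change 0.77, limma adjusted p = 0.773). MNT4 had 48.9 and 92.7 in pmt1 pmt2 cells, against 44.9 and 21.7 in wild type cells, and within the arrays numbered 1 its log2 change was 0.12.

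**Figure D4:**
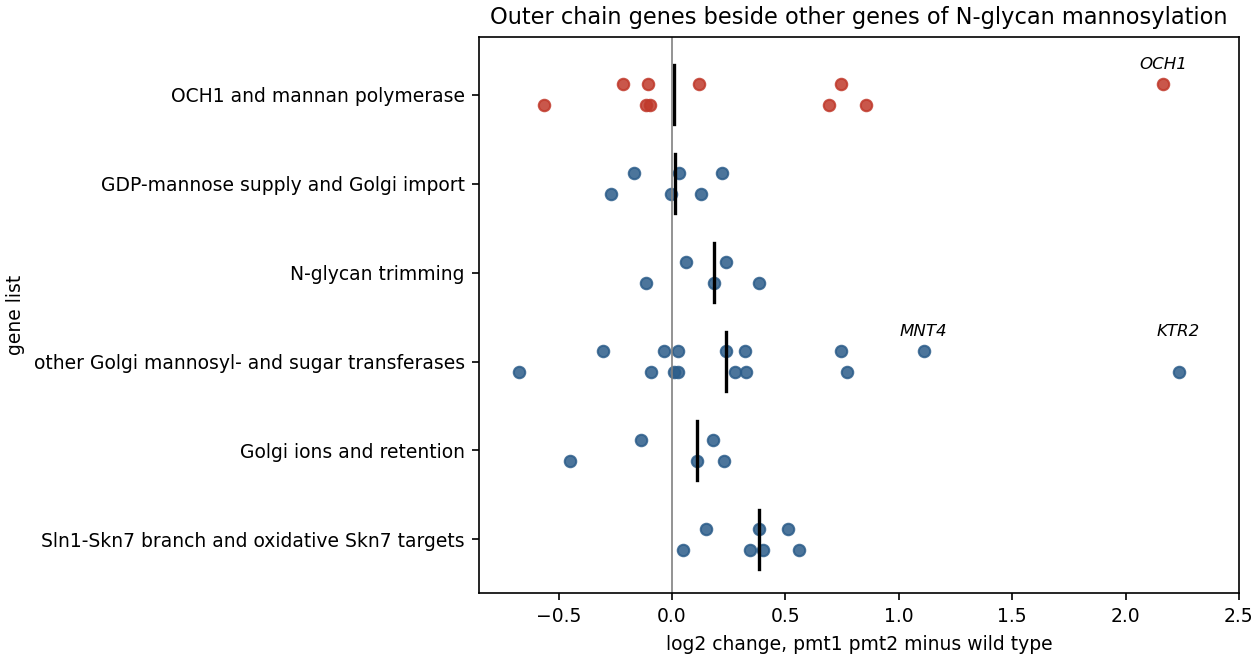
Log2 change, pmt1 pmt2 minus wild type, of each gene of 6 lists (1 point a gene, spread vertically for legibility), with the list's median as a black bar and genes above 1 named. The medians lie between 0.010 and 0.38, and OCH1 (2.16) and KTR2 (2.23) stand to the right of every other gene shown.

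The histidine kinase Sln1 and the transcription factor Skn7 have been reported to act on OCH1 in this yeast, so SLN1, YPD1, SKN7 and the oxidative Skn7 targets TRX2, TRR1, TSA1 and AHP1 were read beside it. None of the 7 passed limma's test without or with the block (0.389% and 3.02% of all genes). Without the block 0 of the 7 had an unadjusted p under 0.05 (7.18% of all genes). All 7 had a log2 change above 0, as had 52.5% of all genes, between 0.048 (SLN1) and 0.56 (TRX2), with a median of 0.38. SKN7 had 266.2 and 314.2 in pmt1 pmt2 cells, against 197.7 and 208.6 in wild type cells (log2 change 0.51, limma adjusted p = 0.933). TRX2, for a cytosolic thioredoxin, had 1320.1 and 1387.1 in pmt1 pmt2 cells, against 892.7 and 945.6 in wild type cells. AHP1, for a thiol peroxidase, had 3517.1 and 3891.8 in pmt1 pmt2 cells, against 3188.1 and 2523.7 in wild type cells. The strains did not overlap for 4 of the 7, these genes and TSA1, against 33.2% of all genes, and their log2 changes were each below that of OCH1.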

How the data were processed

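The authors deposited 1 probe set signal per array as linear intensity with 1 decimal. Per the submitters' processing notes the tool was GCRMA (no version), but zeros and unequal distributions are unusual for it, so which summary was deposited is uncertain. Zeros were set to 0.1, signals taken to log2 without further normalization, and the probe set with the highest mean log2 signal kept for each gene (5656 genes of 6504 probe sets naming 1 gene). Symbols came from GEO's platform annotation, updated through the R64 gene table, which served only for names and neighbours. The strains were tested against each other in limma 3.58.1 under R 4.3.3 (lmFit, eBayes, two-sided, Benjamini-Hochberg over all genes), checked on simulated data, where the fit with the array number as a block made somewhat more false calls than its nominal rate. Deviations from the group means of same-numbered arrays correlated across genes (r = 0.65). The r was 0.805 over the 3763 genes with a mean log2 signal of at least 6 in either strain, all members among them. However, 2 pairs and no label do not establish pairing. The number of arrays limits the precision, and no label says which cultures were grown together. The members and lists were chosen with earlier results of these data known. Genes named were the members, PMT1 and PMT2, up to 3 genes of each pathway list by limma's p, the 5 genes most like OCH1, its neighbours, and list members at the ends of a range. Alternatives were other normalizations, filters, low-value treatments, spread estimates, probe set rules, the block, and leaving out each array.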

Additional observations from a re-analysis of the deposited data

How the results depend on the processing

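The OCH1 log2 change stayed between 2.10 and 2.16 under the 11 alternatives with all 4 arrays. Its limma adjusted p passed 0.05 with the replicate block (log2 change 2.16, adjusted p = 0.00875) and with a minimum mean log2 signal of 6 (2.16, 0.0390), and was 0.0739 to 0.458 under the other 9. The count of mannan genes called was 1 in these fits and 0 in all others. Without 1 array it was 0, the OCH1 log2 change ran from 1.90 to 2.43 with adjusted p = 0.120 to 0.481, and the median of the 10 genes from −0.11 to 0.41, while the median of all genes ran from −0.14 to 0.24. After centring, the median of the 10 was −0.050 and that of all genes −0.034. The count of all changed genes (22) was 171 with the replicate block, 2 after quantile normalization, 38 with the minimum of 6, 1 after raising log2 values under 4 to 4, 0 over every probe set (510 at unadjusted p), and 0 to 62 without 1 array. Signs of single mannan genes turned only in fits without 1 array, over which the log2 change ran from −0.52 to 0.089 for MNN9, −0.70 to 0.47 for VAN1, −0.57 to 0.38 for ANP1, −0.67 to 0.45 for MNN11, −0.47 to 1.97 for HOC1, −0.022 to 0.26 for MNN2 and −0.052 to 1.76 for MNN4. MNN10 and MNN5 kept their sign. The cause was not tested. PMT1 missed the threshold under 6 of these alternatives, and PMT2 under 2. All members' used probe sets were above background on all arrays.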

Other observations

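MNN5 and MNN11 lie near each other on chromosome X, with ATG36 next to MNN5 and GON7 next to MNN11 between them. The genes on either side of MNN5, named here because of their values, had an array profile like that of MNN5. SWE1, for a cell cycle kinase, had a signal of 51.4 and 98.1 in pmt1 pmt2 cells, against 53.3 and 24.9 in wild type cells. ATG36, for a receptor of peroxisome degradation, had 67.6 and 171.7 in pmt1 pmt2 cells, against 68.7 and 43.0 in wild type cells. For MNN5, SWE1 and ATG36 the lowest of the 4 signals was on wild type array 2 and the highest on pmt1 pmt2 array 2. UTR5 (below background), CDC11, GRX7 and TOR2, next to other members, had the same lowest and highest arrays, as had KTR2 and MNT4. This order is thus not particular to MNN5 and its neighbours, and its share over all genes was not counted. The log2 changes of SWE1 and ATG36 were −0.052 and −0.023 within the arrays numbered 1 and 1.98 and 2.00 within those numbered 2, and neither passed limma's test (adjusted p = 0.887 and 0.888). Signals of MNN11 and GON7 did not share this profile: MNN11 was lowest on wild type array 2 as well but highest on wild type array 1, and GON7 had 50.9 and 73.9 in pmt1 pmt2 cells, against 75.0 and 118.0 in wild type cells.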
